A study of Mus musculus with 12 samples.

Results

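The effect of earlier culture with all-trans retinoic acid (ATRA) on mouse CD8+ T cells was measured by RNA sequencing after 72 h of co-culture with tumour cells. The members were the ATRA and CTRL libraries of the co-culture count table, 3 of each, which is 6 of the 12 libraries of the series, and every gene of that table was considered. The table listed 13948 genes, of which 12111 had counts high enough to be tested. The other 6 libraries came from the same kinds of cells after 24 h of restimulation with anti-CD3e, and they enter only one comparison near the end.

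Retinoic acid is the active form of vitamin A and binds nuclear receptors of the RAR family, which pair with RXR receptors on DNA and switch target genes on or off. In T cells it is best known for inducing the gut-homing receptors CCR9 and the α4β7 integrin during activation. CD8+ T cells that meet antigen again turn on immediate-early transcription factors of the Egr and Nr4a families, chemokines and cytokines, and low oxygen stabilises HIF transcription factors, which raise genes of glycolysis and glycogen storage.

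In both groups the CD8+ T cells came from spleens of OT-I mice, whose transgenic T cell receptor recognises an ovalbumin peptide. The cells were expanded with anti-CD3e, anti-CD28 and interleukin 2. The ATRA group had 5 ng/mL ATRA in that medium and the CTRL group an equal volume of the solvent DMSO. After 5 days of culture both groups were placed for 72 h, without additives, with GL261 cells, a mouse glioma line, made to express chicken ovalbumin. The co-culture was kept at 1% oxygen for both groups, so no comparison here is with cells at ordinary oxygen. Live CD45.2+ cells were then sorted and their total RNA was sequenced. Nothing in the labels ties the 3 libraries of a group to different animals or cultures, so the p-values cover the spread among these libraries and no more, and that spread may be technical. The labels give ATRA and CTRL libraries of the same replicate number a shared batch. The main fit did not use this pairing, and a fit with replicate as a block was run as an alternative.

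The 6 libraries held 23558244 to 26111497 counted fragments. Levels are given below as CPM (counts scaled to a common library size) after scaling of the libraries by the TMM method, in the order of replicates 1, 2 and 3. They are not divided by gene length, so they are compared between libraries and not between genes. The 50 highest genes took 14.4% to 17.3% of the counts in ATRA libraries and 11.0% to 13.5% in CTRL libraries.

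One library in each group stood apart from its fellows. Across genes, the correlation of log2 CPM was 0.990 between ATRA replicates 1 and 2, but 0.948 and 0.962 between ATRA replicate 3 and these. Of 9597 well-measured genes, 706 were at least 2-fold outside the range of both other ATRA libraries in ATRA replicate 3, against 27 in replicate 1 and 3 in replicate 2. In the CTRL group, 154 of 9405 such genes were outside the range of the other libraries in replicate 1, against 5 in replicate 2 and 3 in replicate 3. Epas1, which encodes HIF-2α, had 9.40, 59.4 and 240.0 CPM in ATRA libraries, against 18.2, 22.3 and 23.3 CPM in CTRL libraries. Gbp10, an interferon-induced GTPase gene, had 194, 162 and 10.1 CPM in ATRA libraries, against 41.7, 10.2 and 9.81 CPM in CTRL libraries. In both genes the spread within a group exceeded the distance between the group means, and neither is read as a treatment difference here. Results are therefore also given without each library in turn and with both of these libraries left out.

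T cell identity genes were present in every library. All 12 members of that list with values were tested, among them Cd3e, a chain of the T cell receptor complex, at 188, 184 and 181 CPM in ATRA libraries and 217, 165 and 168 CPM in CTRL libraries. Of these 12, 2 were called higher and 1 lower (median 0.12; 0 to 5 and 0 to 3 without one library). Their summed level was 3254 to 4034 CPM in ATRA libraries, against 3040.3 to 4042 CPM in CTRL libraries. Genes that mark glioma cells, granulocytes and erythroid cells reached at most 3.84 CPM per list in any library, and none of them was high enough to test. Of 10 glioma markers listed, 3 had values. B cell markers (1 of 3 tested higher, 1 lower) summed to 41.9 to 70.6 CPM in ATRA libraries and 48.7 to 60.9 CPM in CTRL libraries. NK cell markers (1 of 4 higher, 2 lower) summed to 21.5 to 58.2 CPM in ATRA libraries and 34.3 to 47.2 CPM in CTRL libraries.

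Other marker lists had sums that did not overlap between the groups, though all but the epithelial list held members called in both directions. Such sums can rest on few members. When a library was left out, the median log2 fold change ran from -0.29 to 0.61 for dendritic cell markers. For stromal markers it ran from -1.41 to 1.02, so neither list is read as moving in 1 direction. Macrophage markers (2 of 3 higher, 1 lower) summed to 19.9 to 24.2 CPM in ATRA libraries and 12.3 to 13.4 CPM in CTRL libraries. Dendritic cell markers (2 of 6 in each direction) summed to 110.3 to 214 CPM in ATRA libraries and 62.8 to 70.0 CPM in CTRL libraries, and CD4 T cell markers (2 of 5 higher, 1 lower) to 313 to 616 CPM in ATRA libraries and 170.5 to 192 CPM in CTRL libraries. Ctla4, taken up below as an inhibitory receptor, made up most of the CD4 T cell sum in every library. Its call ended without CTRL replicate 2 or 3, and the sum is no measure of CD4 T cell number. Stromal markers (1 of 3 higher, 2 lower) had a lower sum, at 78.4 to 89.0 CPM in ATRA libraries against 124 to 162 CPM in CTRL libraries. All 4 epithelial genes tested were called higher, and they summed to 36.9 to 112 CPM in ATRA libraries against 2.97 to 4.53 CPM in CTRL libraries. Cdh1, the cell adhesion molecule E-cadherin, had 20.8, 31.3 and 67.8 CPM in ATRA libraries and 0.703, 0.935 and 0.845 CPM in CTRL libraries, a log2 fold change of 5.58 (4.96 without ATRA replicate 3). Cd4 itself had 0.702, 1.22 and 1.08 CPM in ATRA libraries and 0.781, 0.224 and 0.294 CPM in CTRL libraries and was not called (adjusted p = 0.128). The part of other cells in the results below was not tested. In these bulk samples, fewer cells of a kind and less RNA per cell cannot be told apart.

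ATRA and CTRL cells differed widely after the additive-free co-culture. The series holds no library from before the co-culture, so when the differences arose was not tested. At an adjusted p of 0.05, 4071 genes were called, which is 33.6% of the 12111 tested: 2188 (18.1%) higher and 1883 (15.5%) lower in ATRA libraries. The called difference was at least 2-fold for 1826 genes (15.1%), 1180 higher and 646 lower. It was at least 4-fold for 748 genes (6.18%), 484 higher and 264 lower. At 16-fold or more, 110 genes were higher and 103 were lower. The 3 values of one group lay wholly above the 3 of the other for 6905 genes (57.0%), called or not, and for 4065 of the 4071 called. A lack of overlap, where given below, is thus a description and adds no support to a call. The median log2 fold change of all genes tested was 0.01, so list counts with all libraries are read against 18.1% and 15.5% and a median near 0. These shares change with the libraries used. Without CTRL replicate 3, 940 of 12377 genes tested were called higher and 673 lower. Without ATRA replicate 3 and CTRL replicate 1 they were 4015 and 3965 of 12252. List counts in such settings largely follow these totals and are to be read against them. Genes called lower made up 11.4% of the counts in ATRA libraries, against 19.0% in CTRL libraries. With the libraries paired by batch, 2892 genes were called, 2823 of them among the 4071.

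**Figure D1:**
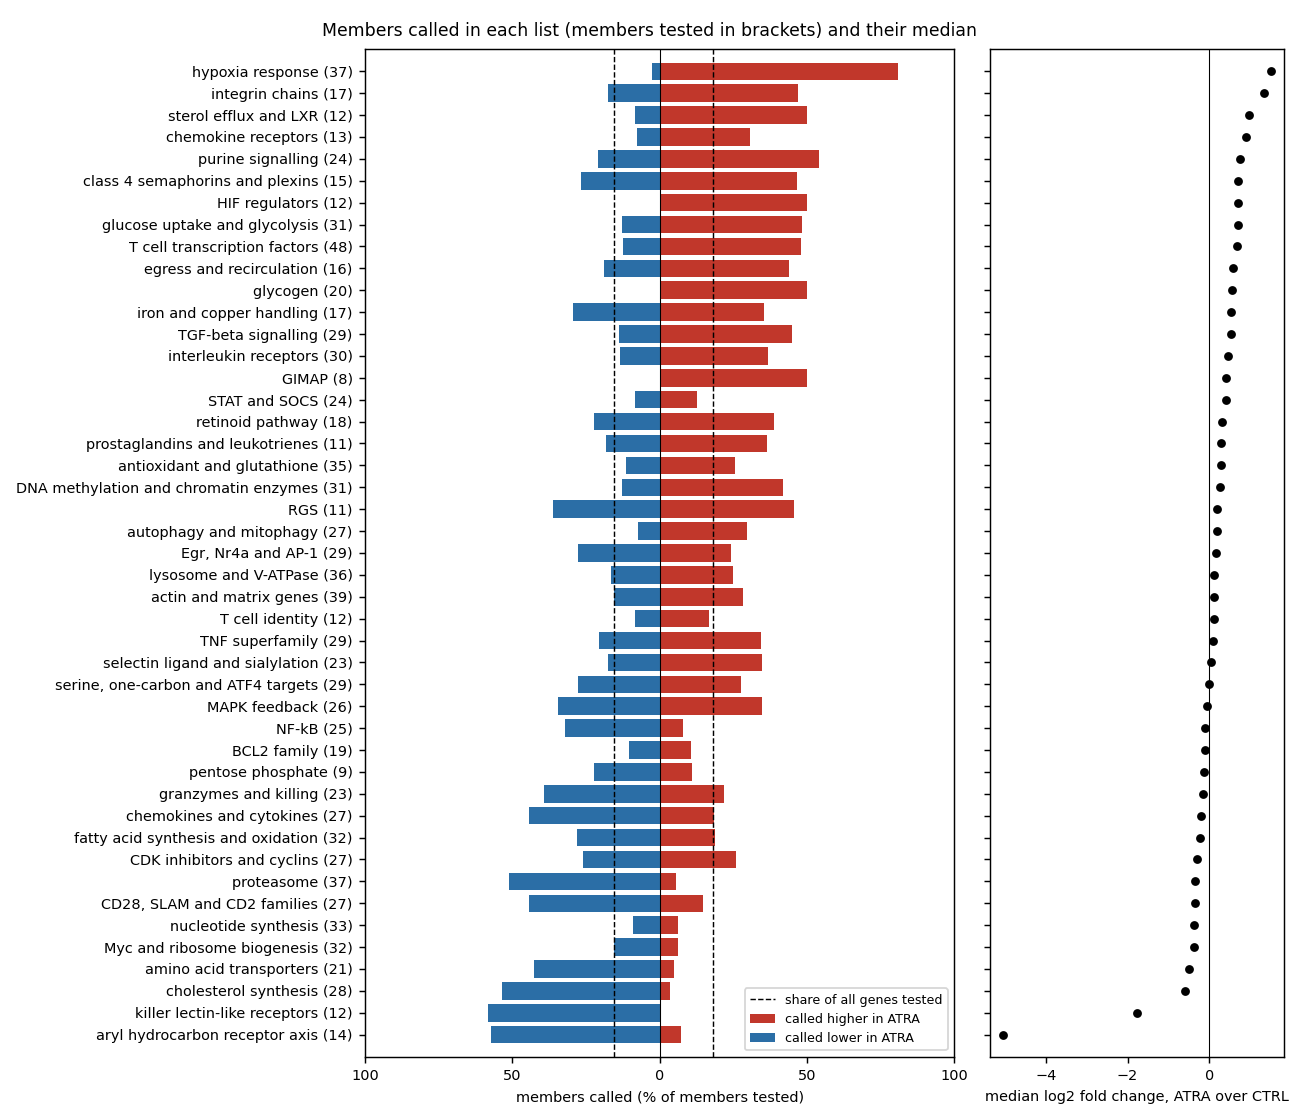
Each row is 1 of 45 gene lists. The left panel gives the percent of its tested members called higher (red) and lower (blue) in ATRA libraries, with dashed lines at the shares of all genes tested, and the right panel its median log2 fold change, ATRA over CTRL. Hypoxia-response genes have 30 of 37 higher, and the aryl hydrocarbon receptor axis has the lowest median, -5.04. The lists were chosen with earlier results of these data known.

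Genes are taken up by their roles, in 45 lists of pathways and families. In each list the members with the strongest evidence and the largest change are named. Other members were named after their values were seen, most often because their call held under all 11 alternative settings (3 other fits or filters, a replicate block, each library left out in turn and 2 libraries left out together). Of 173 called genes named by rule, 125 were called under every one of these settings. Unless a sentence says otherwise, each gene given below as changed is one whose call held in all of them.

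The retinoid list holds receptors, binding proteins and cofactors, and also target genes such as Tgm2. Of its 18 tested members, 7 were higher and 4 lower, with a median log2 fold change of 0.30. Leaving out a library gave 4 to 7 higher and 1 to 6 lower members, the lowest without CTRL replicate 2 or 3. Rara, the receptor that binds retinoic acid, had 55.3, 50.2 and 38.4 CPM in ATRA libraries, against 19.2, 16.8 and 14.8 CPM in CTRL libraries. Hic1, a transcriptional repressor that depends on retinoic acid in intestinal T cells, had 26.0, 29.4 and 40.2 CPM in ATRA libraries, against 6.17, 7.07 and 7.13 CPM in CTRL libraries. Both were higher in every ATRA library than in any CTRL library, by log2 fold changes of 1.50 ± 0.17 and 2.23 ± 0.20 (SE). Crabp2, whose product carries retinoic acid to its receptors, went the other way and was nearly silent, at 0.858, 0.883 and 0.475 CPM in ATRA libraries against 32.8, 41.1 and 38.1 CPM in CTRL libraries. That is 50.0-fold higher in CTRL libraries (log2 fold change -5.64 ± 0.25, adjusted p = 0.000180). Rarg, another receptor of the family, had 9.12, 8.67 and 14.4 CPM in ATRA libraries and 7.74, 4.83 and 4.81 CPM in CTRL libraries and was not called (adjusted p = 0.0563). Rxra, of the partner receptors, was called lower (-2.38, adjusted p = 0.0136), a call that ended without CTRL replicate 2 or 3 (adjusted p 0.0542 to 0.0584). Receptor genes were thus called in both directions.

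Ccr9, the chemokine receptor that guides T cells to the small intestine, had 40.9, 40.0 and 42.3 CPM in ATRA libraries and no count in any CTRL library, at least 363-fold higher with a floor of 3 counts per CTRL library. Cxcr4, the receptor for CXCL12, had 201, 244 and 444 CPM in ATRA libraries, against 8.99, 9.28 and 9.00 CPM in CTRL libraries. Its log2 fold change was 5.02 ± 0.34 (32.6-fold, adjusted p = 0.000480). Ccr7, which guides cells to lymph nodes, had 215, 206 and 198 CPM in ATRA libraries and 66.8, 43.2 and 47.9 CPM in CTRL libraries (log2 fold change 1.97 ± 0.18). None of these 3 receptors overlapped between the groups. Ccr6 was the one chemokine receptor called lower: it had no count in any ATRA library, against 2.03, 0.860 and 1.40 CPM in CTRL libraries, at least 11.5-fold lower. Of 13 chemokine receptors tested, 4 were called higher and 1 lower (median 0.91), with 3 to 5 and 1 or 2 without one library and 8 and 2 without ATRA replicate 3 and CTRL replicate 1.

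Among 17 integrin chains, 8 were higher and 3 lower, with a median of 1.33. The higher count was 5 without CTRL replicate 2 or 3 and the lower count was 2 without any library other than ATRA replicate 3. Itgb7, the β7 chain of the gut-homing integrin, had 482, 479 and 678 CPM in ATRA libraries and 46.8, 47.2 and 48.8 CPM in CTRL libraries (log2 fold change 3.52 ± 0.17). Its partner α4, Itga4, had 233, 247 and 316 CPM in ATRA libraries and 92.4, 121 and 105 CPM in CTRL libraries (1.33 ± 0.16). Itga1, a collagen-binding chain, had 8.97, 7.61 and 9.80 CPM in ATRA libraries, against 1.60, 2.09 and 3.34 CPM in CTRL libraries. Itgb1, the β1 chain that also pairs with α4 and α1, was lower, at 219, 203 and 172 CPM in ATRA libraries and 381, 320.3 and 315 CPM in CTRL libraries (-0.77 ± 0.13, adjusted p = 0.00730). The β7 and β1 partners of α4 thus differed in opposite directions.

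**Figure D2:**
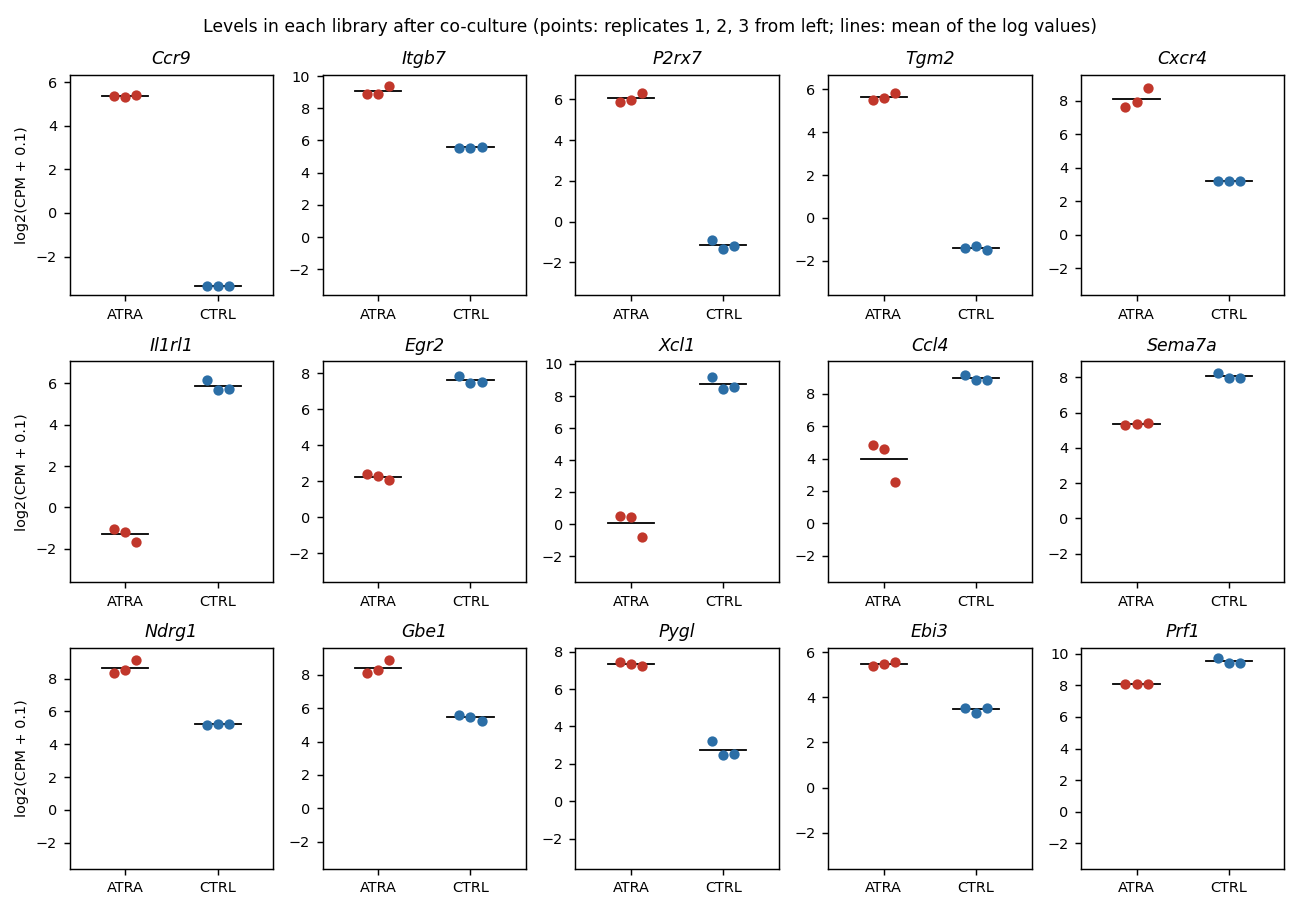
Points are the 6 libraries, ATRA left and CTRL right in each panel, as log2(CPM + 0.1), with replicates 1, 2 and 3 from left to right and a line at the mean of the log values. The 15 panels show genes with no overlap between groups: homing receptors and Tgm2 high in ATRA libraries, activation genes such as Egr2 and Xcl1 low, glycogen and hypoxia genes high.

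In the list of lymphoid egress and recirculation, 7 of 16 genes were higher and 3 lower (median 0.58). The count of lower members was 0 without ATRA replicate 2 or without CTRL replicate 2 or 3. Klf2, the transcription factor that switches on egress receptors, had 6.16, 5.97 and 3.54 CPM in ATRA libraries, against 0.195, 0.112 and 0.478 CPM in CTRL libraries. Its log2 fold change was 4.29 ± 0.53 (5.05 without CTRL replicate 3). S1pr1, the sphingosine 1-phosphate receptor through which T cells leave lymph nodes, had 63.6, 62.5 and 83.6 CPM in ATRA libraries and 12.3, 15.9 and 16.1 CPM in CTRL libraries (2.24 ± 0.17, adjusted p = 0.000743). Foxo1, which activates Klf2, had 114, 134 and 245 CPM in ATRA libraries, against 52.0, 39.2 and 41.7 CPM in CTRL libraries.

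Selectin-ligand and sialylation genes split, with 8 of 23 higher and 4 lower (median 0.03; 4 to 9 higher and 2 to 6 lower when a library was left out). Selplg, the selectin ligand PSGL-1, had 614, 624 and 852 CPM in ATRA libraries and 401, 296 and 328 CPM in CTRL libraries. St8sia4, which adds α2,8-linked sialic acid, had 15.9, 18.8 and 24.3 CPM in ATRA libraries and 7.42, 9.28 and 10.3 CPM in CTRL libraries (1.12 ± 0.21). St3gal6, an α2,3-sialyltransferase, was lower, with 3.90, 4.80 and 3.80 CPM in ATRA libraries and 25.3, 32.5 and 33.2 CPM in CTRL libraries (-2.86 ± 0.18). St8sia4 and St3gal6 thus differed in opposite directions, but the list did not split by type of bond. St3gal1, another α2,3-sialyltransferase, was called higher (2.19, adjusted p = 0.0296), a call that ended under 4 of the alternatives. St6gal1 was also higher (2.08, adjusted p = 0.00416).

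Of 29 Egr, Nr4a and AP-1 genes, many of them immediate-early genes of antigen-receptor signalling, 7 were higher and 8 lower, with a median of 0.17. Leaving out a library gave 2 to 8 higher and 5 to 10 lower. Egr2, a transcription factor induced by calcium signalling, had 5.26, 4.84 and 4.01 CPM in ATRA libraries, against 233, 177 and 185 CPM in CTRL libraries, 42.0-fold higher in CTRL libraries (log2 fold change -5.39 ± 0.18, adjusted p = 8.0e-05). Nr4a2, a nuclear receptor gene without a known ligand that is induced alongside, had 16.8, 19.2 and 27.9 CPM in ATRA libraries, against 235, 120.3 and 138 CPM in CTRL libraries (-2.94 ± 0.32). Nab2, the Egr co-repressor, had 47.2, 46.4 and 52.3 CPM in ATRA libraries and 91.3, 81.5 and 86.8 CPM in CTRL libraries (-0.83 ± 0.10). Nr4a3 had 11.6, 9.59 and 1.21 CPM in ATRA libraries and 124, 95.5 and 94.7 CPM in CTRL libraries, a log2 fold change of -3.80 that became -3.16 without ATRA replicate 3 and CTRL replicate 1. Egr1 was not called (-1.14, adjusted p = 0.229), nor was Fos (0.31, adjusted p = 0.385). Among the AP-1 genes, Fosl2 (1.40) and Jun (0.76) were called higher, with calls that ended without CTRL replicate 2 or 3 and under others of the alternatives (adjusted p 0.0606 to 0.112).

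Of the NF-κB genes, 2 of 25 were higher and 8 lower (median -0.10), and without CTRL replicate 2 or 3 these counts were 0 and 5. The lower count was 11 without ATRA replicate 3. Rel, the c-Rel subunit of activated T cells, had 30.4, 28.4 and 37.6 CPM in ATRA libraries, against 217, 139.9 and 151 CPM in CTRL libraries (-2.40 ± 0.21). Nfkb2, the precursor of p52, had 131, 129.7 and 126 CPM in ATRA libraries and 387, 283 and 305 CPM in CTRL libraries (-1.33 ± 0.13). The groups of both genes were far apart.

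MAPK regulators were called in both directions, 9 of 26 higher and 9 lower (median -0.05). The higher count was 5 without CTRL replicate 2 or 3, and the lower count ran from 7 to 13, the most without ATRA replicate 3. Rasgrp1, which activates Ras after diacylglycerol release, had 276, 277 and 301 CPM in ATRA libraries, against 80.0, 97.5 and 95.6 CPM in CTRL libraries (1.65 ± 0.11, adjusted p = 0.000459). Rasgrp2, which acts mainly on Rap1 and so on integrin adhesion, had 61.4, 58.4 and 42.1 CPM in ATRA libraries and 3.44, 6.10 and 6.43 CPM in CTRL libraries (3.34 ± 0.28). Feedback inhibitors of the list were called in both directions. Spry2 had 12.0, 12.7 and 11.8 CPM in ATRA libraries and 52.8, 36.1 and 38.0 CPM in CTRL libraries, and Spred1 had 18.8, 14.8 and 11.5 CPM in ATRA libraries and 45.5, 39.7 and 43.2 CPM in CTRL libraries. The phosphatase gene Dusp22 was higher, with 39.6, 38.8 and 42.5 CPM in ATRA libraries and 18.8, 19.3 and 20.6 CPM in CTRL libraries (1.04 ± 0.10), while Dusp5 and Dusp6 were not called (adjusted p 0.216 and 0.770). The 5 genes given by library were without overlap between the groups.

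Of the regulators of G-protein signalling, 5 of 11 were higher and 4 lower (median 0.20), with 4 or 5 in each direction whichever library was left out. Rgs12 had 11.6, 14.3 and 13.5 CPM in ATRA libraries and 3.09, 1.65 and 1.73 CPM in CTRL libraries (2.61 ± 0.29). Rgs2 had 6.78, 6.44 and 6.73 CPM in ATRA libraries and 33.8, 20.9 and 19.9 CPM in CTRL libraries (-1.90 ± 0.23). Both encode proteins that speed the shut-off of G proteins below receptors such as the chemokine receptors above.

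Killer lectin-like receptors, NK-type receptors that CD8+ T cells gain on activation, were called in 1 direction only in the full set of libraries: 0 of 12 higher and 7 lower, with a median of -1.76. Leaving out a library gave 6 to 9 lower members, and 1 was called higher without ATRA replicate 3. Klrc1, the inhibitory receptor NKG2A, had 146, 128 and 70.7 CPM in ATRA libraries, against 476, 283 and 308 CPM in CTRL libraries (-1.63 ± 0.32, adjusted p = 0.0114). Its partner CD94, Klrd1, had 99.4, 93.3 and 58.4 CPM in ATRA libraries and 299, 174 and 187 CPM in CTRL libraries (-1.39 ± 0.28). Klrk1, the activating receptor NKG2D, had 127, 107 and 21.4 CPM in ATRA libraries and 269.6, 179.8 and 200.2 CPM in CTRL libraries and was not called (adjusted p = 0.117). Several genes of this family are close copies of each other, so reads may be split between them and single values are uncertain. The NK cell marker sums given above overlapped between the groups.

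In the CD28, SLAM and CD2 families of inhibitory and costimulatory receptors, 12 of 27 were lower and 4 higher (median -0.36). The lower count ran from 6 without ATRA replicate 2 or CTRL replicate 3 to 15 without ATRA replicate 3, and the higher count from 0 to 7. Cd5, which dampens receptor signalling, had 77.6, 79.5 and 81.1 CPM in ATRA libraries, against 186, 177 and 187 CPM in CTRL libraries (-1.20 ± 0.08, adjusted p = 0.000493). Tigit, an inhibitory receptor of exhausted and regulatory T cells, had 47.2, 48.6 and 51.8 CPM in ATRA libraries and 112, 103 and 109 CPM in CTRL libraries (-1.13 ± 0.09). These 2 had a tight spread within both groups, whereas Pdcd1, which encodes PD-1, had 23.4, 18.8 and 3.37 CPM in ATRA libraries and 156, 107 and 107 CPM in CTRL libraries (-3.02 ± 0.64, and -2.33 without ATRA replicate 3 and CTRL replicate 1). Ctla4, another inhibitory receptor, was called higher, with 235, 282 and 539.7 CPM in ATRA libraries and 146, 129.7 and 127 CPM in CTRL libraries (1.39, adjusted p = 0.0168), a call that ended without CTRL replicate 2 or 3 (adjusted p 0.0691 and 0.0714). Cd160 (-1.65) and Btla (-1.96) were called lower and Cd244a (1.09) higher, with calls that ended under 3 to 5 of the alternatives. Lag3 had 137, 145 and 209 CPM in ATRA libraries and 168, 141 and 146 CPM in CTRL libraries (adjusted p = 0.646). Havcr2, which encodes TIM-3, had 77.2, 86.6 and 134 CPM in ATRA libraries and 193, 138 and 136 CPM in CTRL libraries (adjusted p = 0.0812).

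Of 27 chemokines and cytokines, 12 were lower and 5 higher (median -0.21), and 11 to 13 were lower and 3 to 6 higher when a library was left out. Xcl1, a chemokine that draws cross-presenting dendritic cells, had 1.33, 1.26 and 0.475 CPM in ATRA libraries, against 573, 352 and 382 CPM in CTRL libraries (-8.72 ± 0.42, and -8.13 without ATRA replicate 3 and CTRL replicate 1). Ccl4, a chemokine of activated T cells, had 28.1, 23.9 and 5.83 CPM in ATRA libraries and 569, 465 and 463 CPM in CTRL libraries (-4.69 ± 0.57, adjusted p = 0.00265). Csf1, the macrophage growth factor, had 0.273, 0.505 and 0.259 CPM in ATRA libraries and 21.4, 11.2 and 12.3 CPM in CTRL libraries (-5.42 ± 0.41). ATRA replicate 3 was the lowest library for all 3 genes, but replicates 1 and 2 also lay far under every CTRL library. Csf2, which encodes GM-CSF, had 50.0, 41.7 and 19.4 CPM in ATRA libraries and 214, 310.5 and 305 CPM in CTRL libraries.

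Other secreted factors were higher. Ebi3, the shared subunit of interleukins 27 and 35, had 41.8, 44.1 and 47.2 CPM in ATRA libraries, against 11.6, 9.76 and 11.5 CPM in CTRL libraries (2.02 ± 0.12, adjusted p = 0.000328). Lif, a cytokine of the interleukin 6 family, had 51.2, 47.3 and 26.7 CPM in ATRA libraries and 2.93, 8.72 and 9.18 CPM in CTRL libraries (2.59 ± 0.46). Il4, the helper cytokine interleukin 4, had a log2 fold change of 6.72, which became 5.05 without ATRA replicate 3 and 7.91 without CTRL replicate 3, and its call ended without CTRL replicate 2 (adjusted p = 0.0587). Ebi3 had the smallest spread of the 3.

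Of 23 genes of granule-mediated killing, 5 were higher and 9 lower (median -0.16). Leaving out a library gave 1 to 5 higher and 5 to 8 lower. Prf1, the pore former perforin, had 269.8, 268 and 265 CPM in ATRA libraries, against 861, 672 and 688 CPM in CTRL libraries (-1.47 ± 0.12, adjusted p = 0.000878). Gzmb, the granzyme that enters through that pore, had 1126, 1147 and 1640.2 CPM in ATRA libraries and 1699.9, 1202 and 1215 CPM in CTRL libraries and was not called (adjusted p = 0.806). Serpinb9, which protects the killer cell from granzyme B, was lower, with 79.7, 72.1 and 32.4 CPM in ATRA libraries and 442, 289 and 307 CPM in CTRL libraries (-2.49 ± 0.36). Gzma, another granzyme, had 457, 573 and 1097 CPM in ATRA libraries and 318, 321 and 318 CPM in CTRL libraries (1.15, adjusted p = 0.0320), a call that ended under 4 of the alternatives.

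In the tumour necrosis factor superfamily, 10 of 29 were higher and 6 lower (median 0.09). The higher count was 5 without CTRL replicate 2 or 3 and the lower count 2 without CTRL replicate 3. Tnfrsf18, the costimulatory receptor GITR, had 202, 206 and 266 CPM in ATRA libraries, against 86.2, 99.5 and 98.8 CPM in CTRL libraries (1.24 ± 0.14). Tnfrsf8, which encodes CD30, had 316, 337 and 454 CPM in ATRA libraries and 66.4, 137 and 132 CPM in CTRL libraries (1.73 ± 0.30). Among ligands, Ltb, lymphotoxin β, had 153, 162 and 193 CPM in ATRA libraries and 72.0, 66.6 and 68.9 CPM in CTRL libraries. The death ligand TRAIL, Tnfsf10, was lower, with 9.90, 14.1 and 15.6 CPM in ATRA libraries and 41.6, 47.8 and 49.9 CPM in CTRL libraries (-1.81 ± 0.19). Groups did not overlap for any of the 4, which holds for 4065 of all 4071 called genes.

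In the interleukin receptor list, which also holds interferon and TGF-β family receptors, 11 of 30 were higher and 4 lower (median 0.45). Leaving out a library gave 8 to 13 higher and 2 to 6 lower. Acvrl1, taken up below, is counted as higher both here and among the TGF-β genes, so the lists are not independent. Without ATRA replicate 3 and CTRL replicate 1 the higher count was 22. The largest difference was downward: Il1rl1, the receptor of the alarmin interleukin 33, had 0.390, 0.337 and 0.216 CPM in ATRA libraries, against 71.8, 51.9 and 53.6 CPM in CTRL libraries. That is 184-fold higher in CTRL libraries (-7.52 ± 0.26, adjusted p = 8.0e-05). Both chains of the interferon-γ receptor were higher, Ifngr1 with 288, 284 and 254 CPM in ATRA libraries against 117, 70.1 and 70.8 CPM in CTRL libraries, and Ifngr2 with 5.22, 6.27 and 4.96 CPM in ATRA libraries against 0.547, 0.711 and 0.331 CPM in CTRL libraries. Il6st, the gp130 signalling chain that Lif also uses, had 33.4, 32.2 and 33.1 CPM in ATRA libraries and 16.0, 14.6 and 14.7 CPM in CTRL libraries (1.13 ± 0.10). Of the downstream STAT and SOCS list, 3 of 24 were higher and 2 lower (median 0.40; 1 to 5 in each direction without one library, and 13 higher without both doubted ones).

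TGF-β signalling genes were higher in 13 of 29 cases and lower in 4 (median 0.54), but the higher count was 6 without CTRL replicate 3 and the lower count 2 without ATRA replicate 2 or CTRL replicate 2 or 3. Acvrl1, the type I receptor ALK1, had 18.6, 19.4 and 21.6 CPM in ATRA libraries, against 0.0391, 0.224 and 0.0735 CPM in CTRL libraries (7.40 ± 0.41, and 8.32 without CTRL replicate 2). Tgfb3, a ligand, had 10.9, 11.3 and 21.0 CPM in ATRA libraries, against 0.195, 0.0748 and 0 CPM in CTRL libraries (7.27 ± 0.67, and 8.42 without CTRL replicate 1). Of the shared machinery, Tgfbr1, the type I receptor of TGF-β, had 20.9, 21.0 and 24.0 CPM in ATRA libraries and 8.95, 8.68 and 8.19 CPM in CTRL libraries. Smad3, the factor it activates, had 21.5, 23.1 and 36.0 CPM in ATRA libraries and 3.75, 6.70 and 6.17 CPM in CTRL libraries (2.27 ± 0.30). The activin subunit gene Inhba was lower, with 5.89, 5.43 and 2.72 CPM in ATRA libraries and 24.0, 37.0 and 37.0 CPM in CTRL libraries (-2.80 ± 0.33).

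Of 48 T cell transcription factors, 23 were higher and 6 lower (median 0.67). The higher count was 11 without CTRL replicate 3, and without ATRA replicate 3 and CTRL replicate 1 it was 31, with 11 lower. Tbx21, the effector factor T-bet, had 42.6, 42.6 and 55.1 CPM in ATRA libraries, against 123, 113 and 125 CPM in CTRL libraries (-1.36 ± 0.13, adjusted p = 0.00129). Eomes, its relative, had 9.79, 9.13 and 8.94 CPM in ATRA libraries and 32.2, 25.2 and 24.0 CPM in CTRL libraries (-1.55 ± 0.15). Lef1, a factor of naive and memory T cells, had 128, 125 and 114 CPM in ATRA libraries and 56.5, 65.2 and 62.2 CPM in CTRL libraries (1.00 ± 0.10). The groups were separate for all 3, with T-bet and Eomes low and Lef1 high in ATRA libraries. Foxo3 had 132, 159 and 310.0 CPM in ATRA libraries and 34.1, 39.6 and 40.2 CPM in CTRL libraries, and Rora had 24.8, 30.5 and 45.8 CPM in ATRA libraries and 10.6, 5.09 and 5.44 CPM in CTRL libraries.

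Chromatin enzymes were higher in 13 of 31 cases and lower in 4 (median 0.27), with 6 higher without CTRL replicate 2 and 1 lower without CTRL replicate 2 or 3, against 12 lower without ATRA replicate 3. Dnmt3a, which lays down new DNA methylation, fell most, with 51.0, 59.6 and 74.8 CPM in ATRA libraries against 309, 258 and 263 CPM in CTRL libraries (-2.16 ± 0.17, adjusted p = 0.000707). Kdm5b, a histone H3 lysine 4 demethylase, had 320.2, 332 and 456 CPM in ATRA libraries and 178, 152 and 152 CPM in CTRL libraries. Ezh1, a Polycomb methyltransferase, had 111, 115 and 171 CPM in ATRA libraries and 62.0, 49.0 and 48.7 CPM in CTRL libraries (1.32 ± 0.20).

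Hypoxia-response genes were the list with the highest share called higher among the pathway lists: 30 of 37 were higher and 1 lower, with a median of 1.51. Lists and members were chosen with earlier results of these data known, so this rank is a description. The member Ppp1r3c had no count in CTRL libraries and could be tested only through the ATRA libraries. Leaving out a library gave 25 to 30 higher members, and leaving out ATRA replicate 3 and CTRL replicate 1 together gave 33. In 35 of 37 genes every ATRA library lay above every CTRL library. Over all genes tested, the groups were apart in 57.0%, in either direction. The summed level was 8666 to 12698 CPM in ATRA libraries, against 4511 to 4933 CPM in CTRL libraries. Both groups had spent the 72 h at 1% oxygen. The 1 lower member was Car12, a carbonic anhydrase, with a log2 fold change of -0.92 and a call that ended without CTRL replicate 2 or 3 (adjusted p 0.0749 and 0.0814).

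The promoters of 4 members are shown because they hold the core of the HIF response element, ACGTG, in capitals (either strand, so CACGT on the strand printed is the same site, and CACGTG reads as the core on both). Pfkfb3 has 2 windows, of which the one with the core is given. Each window runs from 250 bases before to 50 after the RefSeq start of the gene and is printed in the gene's direction, with GRCm38.p6 coordinates.
Selenbp1, chr3:94932833-94933132 (+ strand): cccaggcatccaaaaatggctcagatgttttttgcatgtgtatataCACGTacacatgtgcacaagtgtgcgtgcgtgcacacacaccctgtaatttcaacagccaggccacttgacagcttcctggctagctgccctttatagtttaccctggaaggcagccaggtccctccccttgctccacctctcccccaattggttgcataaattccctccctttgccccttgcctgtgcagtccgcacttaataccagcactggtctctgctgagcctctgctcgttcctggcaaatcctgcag
Bnip3, chr7:138909457-138909756 (- strand): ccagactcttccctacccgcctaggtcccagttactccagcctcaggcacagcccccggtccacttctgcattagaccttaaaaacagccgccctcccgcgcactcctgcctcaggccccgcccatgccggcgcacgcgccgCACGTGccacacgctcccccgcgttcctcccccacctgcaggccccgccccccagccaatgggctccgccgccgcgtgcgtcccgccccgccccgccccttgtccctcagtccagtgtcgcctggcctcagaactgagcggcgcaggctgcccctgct
Ankrd37, chr8:45999801-46000100 (- strand): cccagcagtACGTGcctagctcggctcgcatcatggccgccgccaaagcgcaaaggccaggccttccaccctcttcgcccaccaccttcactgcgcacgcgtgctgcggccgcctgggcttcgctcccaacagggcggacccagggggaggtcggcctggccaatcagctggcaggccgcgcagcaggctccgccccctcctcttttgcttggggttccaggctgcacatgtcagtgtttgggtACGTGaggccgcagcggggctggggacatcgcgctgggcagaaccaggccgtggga
Pfkfb3, chr2:11502041-11502340 (- strand): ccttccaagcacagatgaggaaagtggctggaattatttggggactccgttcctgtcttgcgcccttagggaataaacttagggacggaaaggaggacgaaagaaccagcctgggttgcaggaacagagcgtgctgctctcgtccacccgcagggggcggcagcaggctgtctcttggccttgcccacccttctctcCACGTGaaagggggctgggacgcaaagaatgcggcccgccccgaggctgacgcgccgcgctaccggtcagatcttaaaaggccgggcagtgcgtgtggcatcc
The core was present in 24 of 42 windows of 31 hypoxia-response genes with a RefSeq window (57.1%, Wilson 95% interval 42.2 to 70.9), against 3059 of 11878 windows of all tested genes (25.8%). A match is a description of the letters and no evidence of binding, and the list holds known HIF targets by its making.

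Selenbp1, a selenium-binding protein, had the largest change of the 4, with 99.5, 142 and 316 CPM in ATRA libraries and 1.68, 1.31 and 0.955 CPM in CTRL libraries (7.14 ± 0.57, and 6.52 without ATRA replicate 3). Bnip3, a mitophagy receptor, had 427, 446 and 674 CPM in ATRA libraries and 175, 180.4 and 180.1 CPM in CTRL libraries (1.53 ± 0.19). Ankrd37, a small ankyrin-repeat gene, had 84.2, 94.8 and 147 CPM in ATRA libraries and 26.2, 28.2 and 32.1 CPM in CTRL libraries. For each of them ATRA replicate 3 was the highest library, and replicates 1 and 2 alone also lay above all CTRL libraries. Pfkfb3, whose product makes an activator of glycolysis, had 99.5, 105 and 147 CPM in ATRA libraries and 41.4, 40.4 and 41.3 CPM in CTRL libraries (1.51 ± 0.17). Ndrg1, a hypoxia-induced stress gene, had 326, 373 and 572 CPM in ATRA libraries and 36.2, 36.9 and 37.7 CPM in CTRL libraries, 11.5-fold higher (3.52 ± 0.23, adjusted p = 0.000444). Vegfa, the vascular growth factor, had 91.9, 101 and 171 CPM in ATRA libraries and 29.0, 31.0 and 29.2 CPM in CTRL libraries. Zfp395, a zinc finger gene, was 16.6-fold higher, at 107, 117 and 146 CPM in ATRA libraries and 9.30, 6.43 and 6.54 CPM in CTRL libraries.

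Among the regulators of HIF, 6 of 12 were higher and 0 lower (median 0.71). The higher count was 2 without CTRL replicate 2 or 3, and 2 members were called lower without ATRA replicate 3, also with CTRL replicate 1 left out as well. Hif1a, the oxygen-labile subunit, had 607, 605 and 728 CPM in ATRA libraries and 453, 347 and 349 CPM in CTRL libraries (0.75, adjusted p = 0.0113), a call that ended under 2 of the alternatives. Egln1, the oxygen-sensing prolyl hydroxylase that marks HIF for destruction and is itself a HIF target, had 181, 204 and 311 CPM in ATRA libraries, against 91.6, 83.2 and 82.0 CPM in CTRL libraries (1.44 ± 0.21). Hif3a, a HIF target that can restrain the response, had 3.90, 4.63 and 4.10 CPM in ATRA libraries and 1.48, 1.01 and 0.845 CPM in CTRL libraries.

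**Figure D3:**
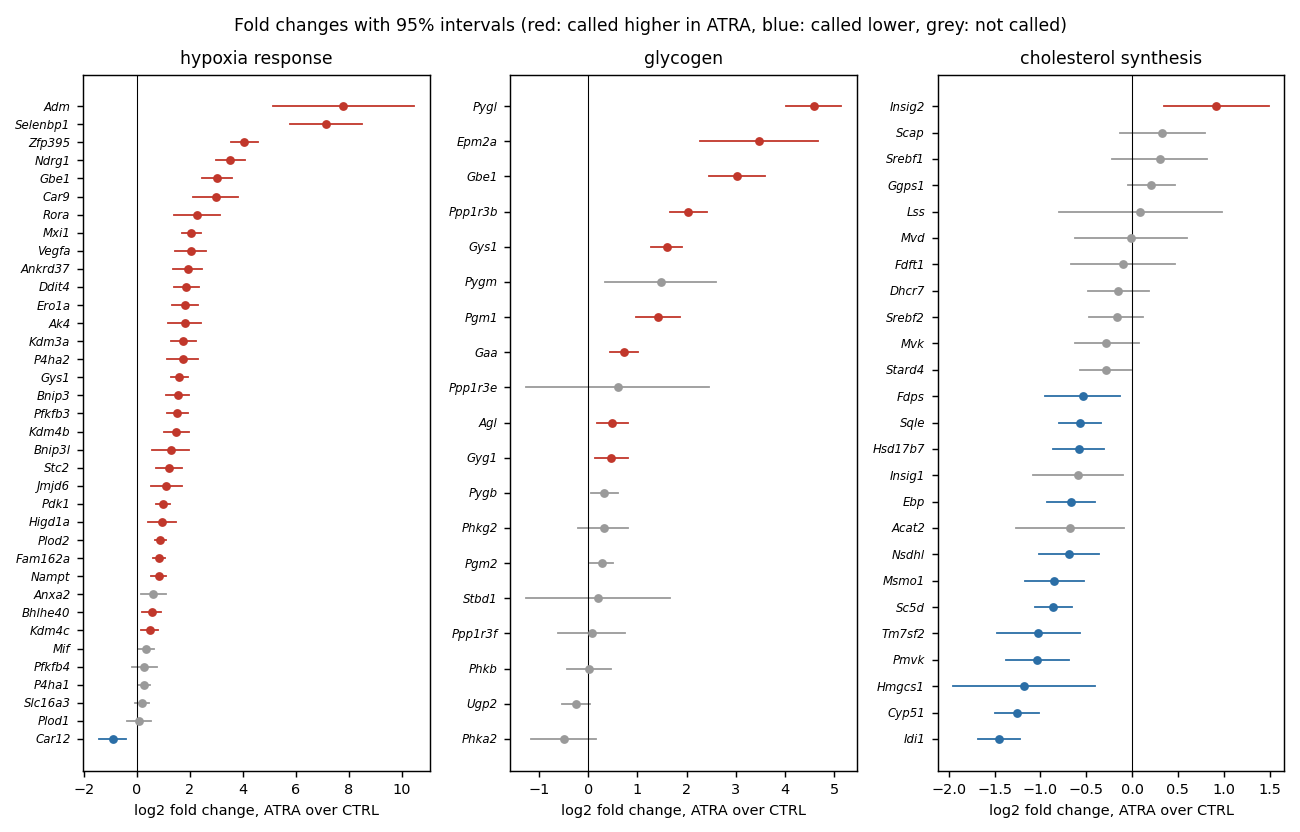
Members of the hypoxia, glycogen and cholesterol synthesis lists, each point a log2 fold change, ATRA over CTRL, with its 95% interval from the fit. Red points were called higher, blue lower and grey neither. Hypoxia and glycogen members sit mostly right of 0 and cholesterol members mostly left; Ppp1r3c, without a count in CTRL libraries, and some other members are not drawn.

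Of 20 genes of glycogen metabolism, 10 were higher and 0 lower, with enzymes of both storage and breakdown among them (median 0.55). The higher count was 8 to 14 when a library was left out and 16 without both doubted libraries. Their summed level was 1925 to 2546 CPM in ATRA libraries and 865 to 922 CPM in CTRL libraries. Gys1, glycogen synthase, had 193, 212 and 257 CPM in ATRA libraries and 66.7, 76.6 and 76.6 CPM in CTRL libraries (1.59 ± 0.14). Gbe1, the branching enzyme, had 271, 312 and 473 CPM in ATRA libraries and 48.7, 43.8 and 37.7 CPM in CTRL libraries, 8.11-fold higher (3.02 ± 0.24). Pygl, the phosphorylase that releases glucose units, had 172, 162 and 150.3 CPM in ATRA libraries and 9.18, 5.39 and 5.77 CPM in CTRL libraries, 23.8-fold higher (4.58 ± 0.24, adjusted p = 0.000207). Each enzyme was higher in all 3 ATRA libraries than in any CTRL library. Ppp1r3b, a subunit that targets the phosphatase activating glycogen synthase, had 462, 486 and 644 CPM in ATRA libraries and 118, 143 and 128 CPM in CTRL libraries. Gys1, Gbe1 and Ppp1r3c are also members of the hypoxia list, so the lists are not independent. Ppp1r3c, a relative of Ppp1r3b, had 0.975, 1.09 and 0.906 CPM in ATRA libraries and no count in CTRL libraries, at least 8.76-fold higher.

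In glucose uptake and glycolysis, 15 of 31 genes were higher and 4 lower (median 0.70). Without CTRL replicate 2 the counts were 6 and 3, without CTRL replicate 3 they were 6 and 2, and without ATRA replicate 3 and CTRL replicate 1 they were 20 and 7. Slc2a1, the glucose transporter GLUT1, had 286, 299.6 and 389 CPM in ATRA libraries and 144, 176 and 175 CPM in CTRL libraries (0.98 ± 0.15). Hk2, hexokinase 2, had 452, 456 and 483 CPM in ATRA libraries and 238, 300.4 and 297 CPM in CTRL libraries (0.74 ± 0.12). Mpc1, a subunit of the carrier that brings pyruvate into mitochondria, was lower, with 21.1, 17.8 and 15.4 CPM in ATRA libraries and 32.5, 31.8 and 30.7 CPM in CTRL libraries (-0.81 ± 0.14). Aldoa and Pkm, glycolytic enzymes, had log2 fold changes of 0.84 and 0.80, and both calls ended without CTRL replicate 2 or 3 (adjusted p 0.0683 to 0.0924) and that of Aldoa also with the replicate block (0.0583). Pentose phosphate genes were called in 1 of 9 cases upward and 2 downward (median -0.14; 0 or 1 and 0 to 3 without one library).

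A retinoid direct repeat was found in the fourth of 4 windows of Ak4, a mitochondrial adenylate kinase of the hypoxia list. That window also holds the HIF core ACGTG, left in lower case. Direct repeats with 1, 2 or 5 bases between them are the classic form of a retinoic acid response element. The half-site was AGGTCA as such, with GGGTCA taken as a variant, AGTTCA likewise counted as one, and GGTTCA as the last form allowed, and the repeat is in capitals, on the strand opposite to the one printed.
Ak4, chr4:101419453-101419752 (+ strand): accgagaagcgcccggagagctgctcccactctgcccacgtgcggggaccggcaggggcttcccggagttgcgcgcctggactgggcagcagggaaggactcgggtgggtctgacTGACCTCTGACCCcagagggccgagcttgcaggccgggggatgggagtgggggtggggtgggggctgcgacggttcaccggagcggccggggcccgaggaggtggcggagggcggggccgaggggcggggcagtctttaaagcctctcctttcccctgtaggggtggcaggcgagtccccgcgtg
Ak4 had 41.2, 43.2 and 67.3 CPM in ATRA libraries and 10.6, 17.0 and 15.8 CPM in CTRL libraries (1.81 ± 0.26). Over all tested genes such a repeat was found in 36 of 11878 windows (0.303%). Among genes at least 2-fold higher, where Ak4 belongs, it was found in 4 of 1220 windows (0.328%, interval 0.128 to 0.84), close to that share. Ak4 is not among the genes at least 4-fold higher, where it was found in 3 of 491 windows (0.611%, interval 0.208 to 1.78). In genes at least 4-fold lower it was found in 0 of 251 windows. The single half-site was present in 37.7% of the higher and 41.8% of the lower windows, against 37.5% of all windows. The Ccr9 window held none of the motifs searched.

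Of 28 cholesterol synthesis genes, 15 fell and 1 rose (median -0.59). The count of lower members ran from 10 without CTRL replicate 3 to 21 without ATRA replicate 3, and it was 23 without ATRA replicate 3 and CTRL replicate 1. The 1 higher member was Insig2, which holds back the SREBP factors that drive the pathway, with 41.0, 48.2 and 78.4 CPM in ATRA libraries and 29.6, 29.5 and 29.4 CPM in CTRL libraries (0.92, adjusted p = 0.0277). Its call ended without ATRA replicate 2 or any one CTRL library (adjusted p 0.0525 to 0.0960). Idi1, an isomerase of the isoprenoid steps, had 22.1, 24.7 and 23.6 CPM in ATRA libraries and 62.7, 66.1 and 63.3 CPM in CTRL libraries (-1.45 ± 0.10). Cyp51, the lanosterol demethylase, had 87.1, 90.9 and 104 CPM in ATRA libraries and 232, 217 and 223 CPM in CTRL libraries (-1.26 ± 0.10). In both the replicates lay close together and the groups far apart. Srebf2, the transcription factor of the pathway, had 323, 352 and 422 CPM in ATRA libraries and 436, 391 and 408 CPM in CTRL libraries and was not called (adjusted p = 0.305).

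One window of the list held a sterol regulatory element by the letters TCACNCCAC (either strand), that of Hmgcs1, a synthase of the early steps, with the match in capitals.
Hmgcs1, chr13:119690101-119690400 (+ strand): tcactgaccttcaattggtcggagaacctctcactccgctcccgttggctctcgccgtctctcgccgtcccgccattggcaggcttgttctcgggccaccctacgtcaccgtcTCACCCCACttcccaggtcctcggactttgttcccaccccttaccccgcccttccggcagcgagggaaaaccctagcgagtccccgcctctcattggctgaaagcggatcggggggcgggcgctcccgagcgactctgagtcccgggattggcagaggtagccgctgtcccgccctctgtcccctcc
That is 1 of 29 windows of cholesterol genes (3.45%), against 131 of 11878 (1.1%) over all tested genes. Hmgcs1 had 2.38, 2.23 and 1.12 CPM in ATRA libraries and 4.77, 4.00 and 4.26 CPM in CTRL libraries (-1.18, adjusted p = 0.0320), a call that ended under 5 of the alternatives.

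Sterol efflux and LXR-related genes went the other way, with 6 of 12 higher and 1 lower (median 0.97; 4 to 8 higher without one library). Abcg1, a cholesterol exporter, had 24.6, 25.3 and 27.2 CPM in ATRA libraries and 8.63, 9.76 and 9.81 CPM in CTRL libraries (1.45 ± 0.12). Arl4c, an LXR target, had 62.7, 72.4 and 96.9 CPM in ATRA libraries and 9.61, 9.24 and 10.4 CPM in CTRL libraries (2.98 ± 0.19, adjusted p = 0.000388). Abca1, the other main exporter, had 11.2, 12.2 and 3.88 CPM in ATRA libraries and 3.67, 4.45 and 4.15 CPM in CTRL libraries and was not called (adjusted p = 0.0730), with ATRA replicate 3 inside the range of the CTRL group.

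In fatty acid metabolism 6 of 32 genes were higher and 9 lower (median -0.24), and the lower count ran from 4 without CTRL replicate 3 to 18 without ATRA replicate 3. Both desaturases named were lower: Fads1 had 19.3, 14.6 and 13.4 CPM in ATRA libraries and 31.6, 48.6 and 44.8 CPM in CTRL libraries (-1.40 ± 0.22), and Fads2 had 14.9, 15.9 and 31.0 CPM in ATRA libraries and 88.0, 109 and 108 CPM in CTRL libraries (-2.30 ± 0.30). Genes of oxidation and storage were among the higher ones: Cpt1a, which admits fatty acids to mitochondria, had 96.1, 99.0 and 100.1 CPM in ATRA libraries and 64.0, 58.1 and 57.2 CPM in CTRL libraries (0.72 ± 0.09). Hilpda, which blocks the breakdown of lipid droplets, had 187, 190.0 and 258 CPM in ATRA libraries and 44.1, 38.7 and 36.5 CPM in CTRL libraries (2.41 ± 0.16). Vldlr, a lipoprotein receptor that low oxygen induces, had 62.8, 62.5 and 78.6 CPM in ATRA libraries and 12.5, 8.87 and 7.02 CPM in CTRL libraries.

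Amino acid transporters were lower in 9 of 21 cases and higher in 1 (median -0.50), with 2 lower without CTRL replicate 2 or 3 and 15 without both doubted libraries. Slc38a1, a glutamine transporter, had 193, 193 and 163 CPM in ATRA libraries and 295, 318 and 307 CPM in CTRL libraries (-0.74 ± 0.10). Serine, one-carbon and ATF4-target genes split evenly, 8 of 29 in each direction (median -0.01; 5 to 10 higher and 2 to 9 lower without one library). Asns, asparagine synthetase, had 228, 202 and 165 CPM in ATRA libraries and 305, 344 and 325 CPM in CTRL libraries, while Atf5, a stress factor of the same response, had 18.7, 17.2 and 18.7 CPM in ATRA libraries and 4.61, 6.85 and 6.69 CPM in CTRL libraries. Nucleotide synthesis genes were called in only 2 of 33 cases upward and 3 downward (median -0.37), and the count depended on the libraries: 0 were called lower with the replicate block or without ATRA replicate 2 or CTRL replicate 2 or 3, against 13 without ATRA replicate 3 and 17 without CTRL replicate 1 as well.

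Of 37 proteasome subunits, 19 were lower and 2 higher, with a median of -0.35 and no change of 2-fold or more. The lower count was 6 without CTRL replicate 3, 9 with the replicate block and 27 without ATRA replicate 3 and CTRL replicate 1, beside 0, 2 and 7 higher in those settings. Psmd13, a lid subunit, had 93.2, 98.3 and 97.3 CPM in ATRA libraries and 154, 171 and 169.8 CPM in CTRL libraries (-0.78 ± 0.09). The 2 higher members were immunoproteasome subunits: Psmb8 had 423, 419.7 and 381 CPM in ATRA libraries and 332, 269 and 268 CPM in CTRL libraries, and Psmb9 had 129, 119 and 100.3 CPM in ATRA libraries and 91.4, 61.2 and 67.3 CPM in CTRL libraries. Both of those calls ended under 4 of the alternatives (adjusted p 0.0219 and 0.0312 with all libraries).

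Cell-cycle inhibitors and cyclins were called 7 of 27 times in each direction (median -0.31). Without CTRL replicate 2 or 3, 4 were higher and 0 lower, and without ATRA replicate 3 and CTRL replicate 1 they were 11 and 12. Cdkn1b, the inhibitor p27, had 31.0, 35.8 and 48.8 CPM in ATRA libraries and 16.0, 12.8 and 12.2 CPM in CTRL libraries (1.49 ± 0.21), and Cdkn1a, p21, had 119.7, 127 and 156 CPM in ATRA libraries and 72.7, 65.2 and 66.2 CPM in CTRL libraries (0.98 ± 0.13). Myc and ribosome biogenesis genes were called in 2 of 32 cases upward and 5 downward (median -0.38), with 0 in either direction without CTRL replicate 3, and 6 higher and 22 lower without ATRA replicate 3 and CTRL replicate 1. Myc itself had 392, 368 and 228 CPM in ATRA libraries and 221, 268 and 278 CPM in CTRL libraries (adjusted p = 0.218), with overlap between the groups.

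Of the purine signalling genes, 13 of 24 were higher and 5 lower (median 0.76; 8 to 14 higher and 2 to 8 lower without one library). P2rx7, the ATP-gated channel, had 58.4, 63.3 and 80.9 CPM in ATRA libraries, against 0.430, 0.299 and 0.331 CPM in CTRL libraries, 189-fold higher (7.56 ± 0.23, adjusted p = 6.6e-05). Art2b, an ADP-ribosyltransferase that can gate that channel from NAD in mouse T cells, had 6.43, 8.33 and 11.5 CPM in ATRA libraries and 1.56, 0.449 and 0.771 CPM in CTRL libraries (3.23 ± 0.48, and 3.83 without CTRL replicate 1). P2rx4, another ATP-gated channel, had 20.9, 29.4 and 49.0 CPM in ATRA libraries and 2.97, 3.93 and 4.96 CPM in CTRL libraries (3.06 ± 0.37). All 3 lay apart between the groups. Entpd1, the ATP-degrading enzyme CD39, had 79.8, 82.7 and 99.1 CPM in ATRA libraries and 36.9, 32.7 and 33.8 CPM in CTRL libraries (1.34 ± 0.12). The adenosine side was lower in its main T cell receptor: Adora2a had 22.3, 24.0 and 17.7 CPM in ATRA libraries and 86.4, 70.3 and 78.9 CPM in CTRL libraries (-1.88 ± 0.15, adjusted p = 0.000772).

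Among lipid mediator genes, 4 of 11 were higher and 2 lower (median 0.28; 2 to 4 and 0 to 2 without one library). Ltb4r1, the leukotriene B4 receptor that draws effector T cells to inflamed tissue, had 59.5, 62.8 and 72.4 CPM in ATRA libraries and 5.39, 14.7 and 11.9 CPM in CTRL libraries (2.60 ± 0.35). In the list of semaphorins and plexins 7 of 15 were higher and 4 lower (median 0.71; 4 to 8 and 2 to 5 without one library). Sema7a, a membrane-anchored semaphorin of activated T cells, had 38.7, 40.7 and 43.4 CPM in ATRA libraries and 307, 249 and 254 CPM in CTRL libraries, 6.60-fold higher in CTRL libraries (-2.72 ± 0.12). Plxna3, a semaphorin receptor, had 39.8, 37.8 and 34.3 CPM in ATRA libraries and 13.7, 13.7 and 13.3 CPM in CTRL libraries (1.46 ± 0.11). Nrp1, a co-receptor for semaphorins and VEGF, had 8.46, 6.23 and 2.24 CPM in ATRA libraries and 157, 97.5 and 104 CPM in CTRL libraries (-4.40, and -3.76 without ATRA replicate 3 and CTRL replicate 1).

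The axis of the aryl hydrocarbon receptor had 8 of 14 members lower and 1 higher, with the lowest median of all lists, -5.04. This count rests on Ugt1a genes, glucuronosyltransferases that share their last exons, so that reads can be assigned to several of them and the single values are uncertain. Ugt1a6a had 2.07, 1.93 and 1.77 CPM in ATRA libraries and 75.0, 44.7 and 51.8 CPM in CTRL libraries (-4.89 ± 0.25). Ugt1a2 had no count in ATRA libraries, against 10.0, 6.32 and 6.32 CPM in CTRL libraries, at least 60.8-fold lower. Ahr itself had 4.80, 4.92 and 4.40 CPM in ATRA libraries and 9.02, 5.35 and 5.95 CPM in CTRL libraries and was not called (adjusted p = 0.134). The 1 higher member was Tiparp (1.84, adjusted p = 0.0121), a call that ended without CTRL replicate 2 or 3 (adjusted p 0.0549 to 0.0552). Counts were 8 or 9 lower and 0 to 3 higher when a library was left out.

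Antioxidant genes were higher in 9 of 35 cases and lower in 4 (median 0.28; 6 to 12 and 2 to 5 without one library). Mt1, a metal-binding metallothionein, had 394, 428 and 585 CPM in ATRA libraries and 214, 215 and 197 CPM in CTRL libraries (1.17 ± 0.16), and Gsto1, a glutathione transferase, had 72.8, 76.9 and 88.4 CPM in ATRA libraries and 37.2, 37.1 and 36.8 CPM in CTRL libraries (1.10 ± 0.11). Txnrd1, thioredoxin reductase, was lower, with 96.3, 97.5 and 67.6 CPM in ATRA libraries and 165, 194 and 191 CPM in CTRL libraries (-1.07 ± 0.16). Iron and copper genes split, 6 of 17 higher and 5 lower (median 0.54; 3 to 7 and 3 to 6 without one library). Tfrc, the transferrin receptor, had 280.1, 275 and 191 CPM in ATRA libraries and 759.8, 889.8 and 845 CPM in CTRL libraries (-1.74 ± 0.17, adjusted p = 0.00131).

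Genes of autophagy were higher in 8 of 27 cases and lower in 2 (median 0.18; 3 to 8 and 1 to 3 without one library), and lysosome genes in 9 of 36 and 6 (median 0.12; 4 to 10 and 1 to 10). GIMAP GTPases, which support T cell survival, were higher in 4 of 8 cases (median 0.42; 1 to 5 without one library), led by Gimap7 with 110.5, 118 and 149.6 CPM in ATRA libraries and 67.6, 44.8 and 49.2 CPM in CTRL libraries. BCL2-family genes were called in 2 of 19 cases in each direction (median -0.10; 0 to 3 higher and 2 or 3 lower). Bcl2a1d, one of a set of near-identical A1 genes whose reads cannot be told apart with certainty, had 78.4, 72.0 and 77.2 CPM in ATRA libraries and 474, 320.3 and 327 CPM in CTRL libraries. The call of Bcl2 itself, a log2 fold change of 1.21, ended with the replicate block and without any one library other than ATRA replicate 3 (adjusted p 0.0504 to 0.0715).

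Actin and matrix genes were higher in 11 of 39 cases and lower in 6 (median 0.12; 6 to 14 and 3 to 8 without one library, and 24 and 11 without both doubted libraries). Tgm2, a protein cross-linking enzyme and a known retinoic acid target, had 45.1, 48.8 and 56.7 CPM in ATRA libraries and 0.273, 0.299 and 0.257 CPM in CTRL libraries, 178-fold higher (7.48 ± 0.18, adjusted p = 2.8e-05). Loxl2, a collagen cross-linking oxidase, had 27.8, 28.4 and 39.8 CPM in ATRA libraries and 2.27, 4.41 and 4.22 CPM in CTRL libraries (3.13 ± 0.30). Myo1e, a membrane-linked myosin, was lower, with 11.0, 13.2 and 21.4 CPM in ATRA libraries and 127, 134 and 137 CPM in CTRL libraries (-3.13 ± 0.26). Stromal marker sums, given above, were lower in ATRA libraries, and their part here was not tested.

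Single genes for insulin-like growth factor binding proteins, which were not a list here, differed by large amounts in both directions. Igfbp4 had 6.04, 4.96 and 5.14 CPM in ATRA libraries, against 0.0391, 0.486 and 0.404 CPM in CTRL libraries (4.09 ± 0.61); its alternatives were not run. Igfbp7 had 0.663, 0.547 and 0.302 CPM in ATRA libraries, against 38.4, 23.7 and 27.2 CPM in CTRL libraries (-5.86 ± 0.34). Igfbp2 had no count in ATRA libraries, against 8.91, 4.04 and 4.26 CPM in CTRL libraries, at least 46.2-fold lower. The second of its 2 RefSeq windows is shown because it holds the AP-1 motif TGANTCA (in capitals).
Igfbp2, chr1:72825137-72825436 (+ strand): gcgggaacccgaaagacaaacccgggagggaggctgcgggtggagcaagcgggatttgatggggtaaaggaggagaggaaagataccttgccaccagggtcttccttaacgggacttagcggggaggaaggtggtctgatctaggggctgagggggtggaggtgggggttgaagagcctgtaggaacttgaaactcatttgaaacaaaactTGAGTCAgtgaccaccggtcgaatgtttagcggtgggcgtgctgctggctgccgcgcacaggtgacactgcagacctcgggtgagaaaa
AP-1 motifs were present in 26 of 251 windows of genes at least 4-fold lower (10.4%, interval 7.17 to 14.7), in 31 of 491 windows of genes at least 4-fold higher (6.31%, 4.48 to 8.82) and in 588 of 11878 windows of all tested genes (4.95%). The HIF core was present in 22.8% of the windows of genes at least 4-fold higher (19.3 to 26.7), an interval that includes the 25.8% of all windows, and in 14.3% of those at least 4-fold lower (10.5 to 19.2), an interval below it. GCGTG, the core bound by the aryl hydrocarbon receptor, was present in 42.8% of the higher and 39% of the lower windows, against 50.6% of all. Intervals cover counting of windows only, and base composition differs between the sets in ways not examined here.

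Taking all calls, the number of genes depended on which libraries entered. Leaving out 1 library gave 1613 to 5617 called genes, the fewest without CTRL replicate 3, and leaving out ATRA replicate 3 and CTRL replicate 1 together gave 7980. Genes called at 2-fold or more varied less, 1146 to 2002 without 1 library and 2239 without both.

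**Figure D4:**
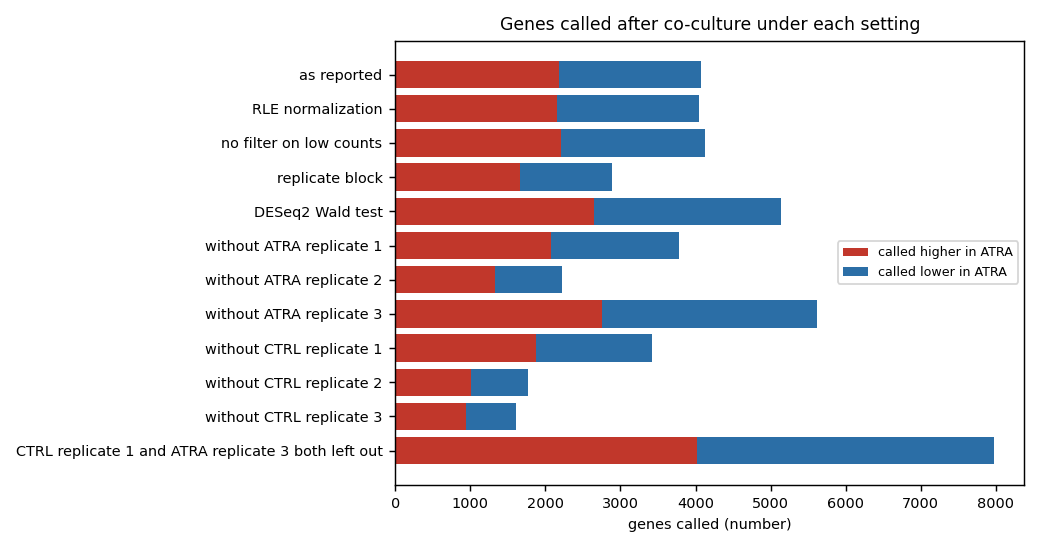
Bars give the number of genes called higher and lower in ATRA libraries under each setting of the analysis, starting from 0. The total is 4071 with all libraries, between 1613 and 5617 with 1 library left out and 7980 with ATRA replicate 3 and CTRL replicate 1 left out.

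Whether the ATRA effect depended on the state of the cells was tested against the 6 restimulated libraries in 1 fit over 12 libraries. The effect after co-culture differed from that after restimulation for 6077 of 12364 genes (49.2%). Egr2 was lower in ATRA cells after co-culture (-5.39) and higher after restimulation (2.71), Prf1 likewise (-1.47 and 1.54), and S1pr1 was higher after co-culture (2.24) and lower after restimulation (-3.23). P2rx7, with 7.56 after co-culture, had 0.12 after restimulation. For Ndrg1 the effects were 3.52 and 4.05 (difference -0.53, adjusted p = 0.143, and 0.00102 to 0.263 without one library), and for Idi1 they were -1.45 and -1.58 (difference 0.14, adjusted p = 0.664), and neither difference passed with all 12 libraries. The 2 sets of libraries were also separate batches, and state and batch cannot be told apart.

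**Figure D5:**
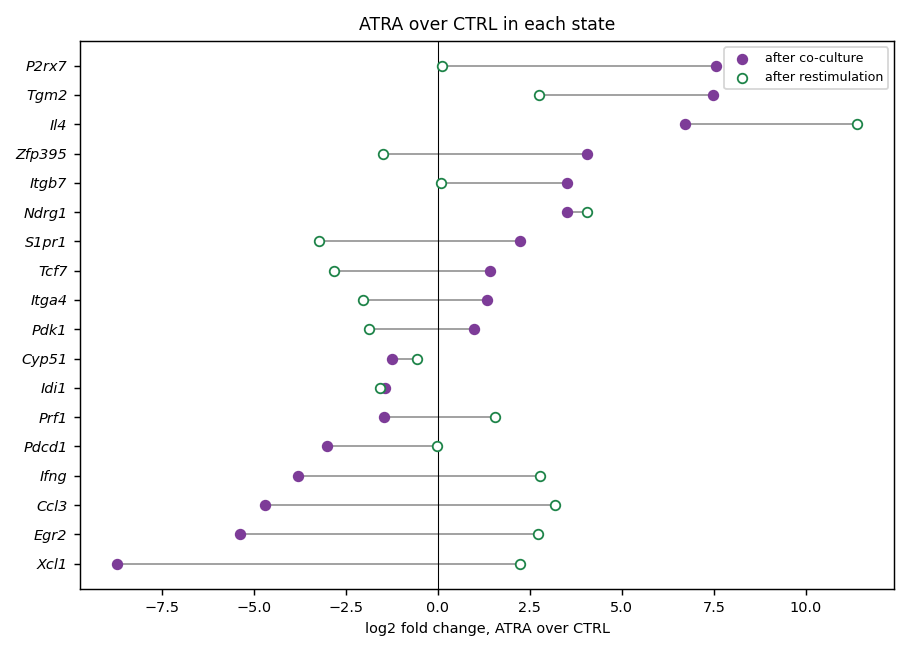
Log2 fold changes, ATRA over CTRL, of selected genes after co-culture (filled purple) and after restimulation (open green), with 0 marked. Xcl1, Egr2, Ifng and Prf1 lie left of 0 after co-culture and right of it after restimulation, S1pr1 the other way round, and Ndrg1 and Idi1 lie close together. Ccr9, without counts in CTRL libraries, and Klf2, without an estimate after restimulation, are not drawn.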

How the data were processed

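Per the labels, RNA of sorted cells was prepared with a stranded total RNA kit. The deposited tables hold whole-number fragment counts per gene, made by the authors. Tools listed in the submitters' processing notes are DESeq2 1.42.1, Salmon 1.10.3, STAR 2.7.11b and cutadapt 5.0, with mm39 as the build. Their roles and the strand setting were not given in the sources used here. Overlapping and antisense genes are therefore uncertain.

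Counts were tested with edgeR 4.0.16 in R 4.3.3: genes kept by filterByExpr, TMM scaling, robust quasi-likelihood fit of ATRA against CTRL, Benjamini-Hochberg adjustment over all genes tested, and a threshold of 0.05. Errors on log2 fold changes are standard errors, with 3 libraries in each group. Folds against a group without counts use a floor of 3 counts per library and cover counting error only. Placing these genes at their bounds moved the median of 0 of the 6 lists that hold one. The treatment by state test used all 12 libraries.

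Members and lists were chosen with earlier results of these data known. Genes were named by rule (smallest p and largest change in each list and direction, the largest changes over all genes, and selected state genes), with others added after their values were seen. Promoter windows are RefSeq sequences of GRCm38.p6, matched by symbol for 9297 of 12111 genes. Replicate numbers mark a shared batch in the labels and so pair the libraries. The deviations of same-numbered libraries correlated at 0.13, -0.06 and 0.07. Alternatives were DESeq2 1.42.0, its size factors, no filter, the replicate block and libraries left out. The procedure was tested on simulated data. A few members of the lists are counted but not reported singly here.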

Additional observations from a re-analysis of the deposited data

Results flagged for a closer look

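For 16 selected genes the ATRA effect after co-culture differed from that after restimulation by the test of the difference itself. Over all genes the same test called 6077 of 12364 (49.2%), so this count is a description. Ndrg1, Idi1 and Il4 were also selected and did not pass. For Ccr9, selected too, the test could not decide, because no CTRL library of either state held a count. The values below are differences of log2 fold changes, co-culture minus restimulation, with Benjamini-Hochberg adjusted p from edgeR over 12364 genes.

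Among homing and egress genes the difference was 3.43 for Itgb7 (adjusted p = 2.7e-07), 3.38 for Itga4 (9.5e-08), 5.48 for S1pr1 (7.2e-09) and 5.06 for Klf2 (0.000689). Klf2 had 0.504, 0.471 and 0.151 CPM in restimulated ATRA libraries and 0.168, 0.733 and 1.02 CPM in restimulated CTRL libraries, too low to be tested there alone. It entered the test of the difference through the co-culture ATRA libraries, where it is high, so its value is a description. Itga4 had 127, 127 and 126 CPM in restimulated ATRA libraries, against 566, 501 and 501 CPM in restimulated CTRL libraries. It was thus higher in ATRA cells after co-culture and lower after restimulation, by 1.33 and -2.05 on the log2 scale. S1pr1 had 8.68, 8.48 and 7.58 CPM in restimulated ATRA libraries, against 83.3, 74.6 and 74.6 CPM in restimulated CTRL libraries.

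Activation and effector genes differed downward. The value was -8.10 for Egr2 (1.5e-09), -6.58 for Ifng (2.7e-05), -10.95 for Xcl1 (4.3e-09), -7.88 for Ccl3 (4.4e-05), -3.01 for Prf1 (4.0e-08) and -2.99 for Pdcd1 (0.00257). Xcl1 had 284, 286 and 288 CPM in restimulated ATRA libraries, against 58.8, 55.7 and 67.8 CPM in restimulated CTRL libraries. Egr2 had 152, 146 and 150.4 CPM in restimulated ATRA libraries, against 23.1, 27.8 and 17.7 CPM in restimulated CTRL libraries. Pdcd1 had 79.1, 62.1 and 68.3 CPM in restimulated ATRA libraries and 62.4, 68.4 and 83.5 CPM in restimulated CTRL libraries.

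Of the other genes, the difference was 7.46 for P2rx7 (4.3e-06), 4.73 for Tgm2 (0.000140), 5.56 for Zfp395 (1.6e-05), 2.85 for Pdk1 (2.1e-07) and -0.68 for Cyp51 (0.00188). Pdk1, a kinase that blocks pyruvate entry to the citric acid cycle, had 18.1, 22.3 and 15.7 CPM in restimulated ATRA libraries, against 73.6, 65.2 and 64.8 CPM in restimulated CTRL libraries. For Tcf7, a factor of memory-like T cells, the difference was 4.24 (0.0241), and its call ended with the replicate block (0.0596) and in part of the fits without one library (0.0221 to 0.0619). Tcf7 had 0.784, 0.262 and 0.201 CPM in restimulated ATRA libraries and 0.730, 0.550 and 7.53 CPM in restimulated CTRL libraries. Only CTRL replicate 3 was above a low level there. Its ATRA effect was called neither after co-culture (1.41, adjusted p = 0.133) nor after restimulation (-2.83, adjusted p = 0.0846). Batch and state cannot be told apart in these comparisons.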

How the results depend on the processing

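With 3 libraries in each group, the number of calls followed the libraries used: 4071 genes with all of them, 1613 to 5617 without one, and 7980 without ATRA replicate 3 and CTRL replicate 1, a pair chosen with earlier results of these data known. Genes called at 2-fold or more were 1826, 1146 to 2002 and 2239. The replicate block, which pairs libraries by batch, gave 2892 calls, 1667 of them at 2-fold or more, and ended the calls of 14 named genes. Another scaling (4051), no filter (4122) and DESeq2 (5141) ended none. Without CTRL replicate 2 or 3, 44 named calls ended each. No named gene changed direction under the alternatives run. The treatment by state test called 6077 genes, 5361 to 7046 without one library and 5403 with the block. The floor of 3 counts per library, used for folds against a group without counts, was a chosen setting and no measured limit of detection. With 2-fold in place of 4-fold, the HIF core was present in 20.6% of windows of lower genes, against 14.3%.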

Other observations

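Interleukins 12 and 18 are known to drive interferon-γ together, and their receptors have 2 chains each. Il12rb1, a chain of the interleukin 12 receptor, had 146, 156 and 189.8 CPM in ATRA libraries and 89.3, 82.5 and 88.4 CPM in CTRL libraries (log2 fold change 0.92 ± 0.12, adjusted p = 0.00341). Il12rb2, the other chain, had 671, 681 and 869.6 CPM in ATRA libraries and 917, 545 and 567 CPM in CTRL libraries and was not called (0.13, adjusted p = 0.679). Il18rap, the accessory chain of the interleukin 18 receptor, had 10.6, 9.72 and 1.34 CPM in ATRA libraries and 107, 63.6 and 71.8 CPM in CTRL libraries (-3.48 ± 0.68, adjusted p = 0.0114). It was -2.73 without ATRA replicate 3 and CTRL replicate 1. Il18r1, its partner, had 31.2, 25.4 and 0.906 CPM in ATRA libraries and 229, 166 and 168 CPM in CTRL libraries (-3.29, adjusted p = 0.0417), a call that ended without any one library other than ATRA replicate 3 (adjusted p 0.0520 to 0.101). Groups overlapped for Il12rb2 only.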
